A study of Saccharomyces cerevisiae with 12 samples.

Results

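Transcripts of 8 genes for enzymes that make or consume pyruvate next to the citric acid cycle were followed in wild-type and *mrn1Δ* budding yeast before and after glucose was replaced by ethanol and glycerol. The genes were *PYC1*, *PYC2*, *MAE1*, *PDA1*, *PDB1*, *LAT1*, *LPD1* and *PDX1*, which are 8 of the 5917 coding sequences in the tables. They were chosen by enzyme name, and the values read for them were their estimated counts in all 12 libraries by genotype and growth stage. No threshold on a value was applied. The list was drawn up with earlier results of these libraries known, so the fold changes below describe the genes, and counts of called genes among them are read beside the share of all genes called.

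The *mrn1Δ* strain is BY4741, a haploid laboratory strain of mating type a, in which a kanamycin selection cassette was integrated at the *MRN1* locus. The control strain was wild-type BY4741 without the cassette. *MRN1* encodes a cytoplasmic RNA-binding protein. The 12 libraries form 4 groups of 3 replicate cultures, namely *mrn1Δ* and wild-type 20 minutes after transfer to medium with 2% ethanol and 2% glycerol (called respiratory, or after the shift), and *mrn1Δ* and wild-type in log phase at an OD600 of 0.6 in rich medium with 2% glucose (called fermentative). All shifted cultures had first been grown in the same glucose medium. Whether the *mrn1Δ* cultures descend from a single transformant is not given in the sources used here, and p-values measure the spread between these cultures.

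The libraries held between 16231559 and 26542199 estimated counts each. The upper limit that a count of 0 allows, 3 counts, was 0.113 to 0.185 CPM, where CPM is the count in a library scaled so that its total is 1000000. This limit covers counting error only. *MRN1* had 2 to 15 counts in the *mrn1Δ* libraries, against 1676 to 3303 counts in the wild-type libraries. The 3 mating type alpha markers summed to between 7.15 and 10.97 CPM over all libraries, and the 5 mating type a markers to between 329.9 and 693 CPM. The 4 glucose-repressed markers *ADH2*, *JEN1*, *FBP1* and *ICL1* summed to 1845 to 2071 CPM in *mrn1Δ* after the shift and 833 to 1138 CPM in wild-type after the shift, against 63.4 to 70.5 CPM in fermentative *mrn1Δ* and 64.6 to 80.0 CPM in fermentative wild-type. Of the 3 genes listed as glucose-grown markers, *HXT1* was lower and *HXK2* and *HXT2* were higher after the shift in both genotypes. This list did not move one way and is not used here as a check of growth state. In bulk cultures, fewer cells with a transcript and less of it per cell cannot be told apart. The part of the higher marker sum of shifted *mrn1Δ* in the results below was not tested.

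Pyruvate is the end product of glycolysis and the point where fermentation and respiration part. In the cytosol of yeast, pyruvate carboxylase uses biotin to add a carboxyl group to pyruvate and so makes oxaloacetate, which refills the citric acid cycle, and *PYC1* and *PYC2* encode its isozymes. In mitochondria, malic enzyme, encoded by *MAE1*, converts malate to pyruvate. The pyruvate dehydrogenase complex turns mitochondrial pyruvate into acetyl-CoA. *PDA1* and *PDB1* encode the alpha and beta chains of its decarboxylating component, *LAT1* the acetyltransferase core that carries lipoate, *LPD1* the dihydrolipoamide dehydrogenase that re-oxidizes the lipoate, and *PDX1* the protein that holds Lpd1 on the core. Lpd1 also serves the alpha-ketoglutarate dehydrogenase and glycine cleavage complexes. When yeast uses ethanol, acetyl-CoA comes mainly from acetate and malate leaving the cycle is a source of pyruvate and oxaloacetate.

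The coding sequences of *PYC1* and *PYC2* are close copies, which bears on how their reads were counted. They were 85.5% identical over 3532 aligned bases, and their longest identical stretch was 200 bases. It lies at chrVII:385700-385899 on the plus strand in *PYC1*, from coding base 505 to 704, and at chrII:661543-661742 on the minus strand in *PYC2*, from coding base 508 to 707 (build R64). The stretch is shown in the direction of the coding strand because a read inside it cannot be told between the isozymes.
PYC1 and PYC2: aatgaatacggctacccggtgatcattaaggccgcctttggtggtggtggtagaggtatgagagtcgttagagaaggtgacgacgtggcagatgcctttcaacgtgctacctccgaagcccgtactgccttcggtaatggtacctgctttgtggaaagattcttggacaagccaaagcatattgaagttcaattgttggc
Of the windows of 31 bases in *PYC1*, 13.1% also occurred in *PYC2*, and of those of 50 bases 8.46% did. Estimated counts divide such reads between the copies, and the counts were not whole in 10 libraries for *PYC1* and in 11 for *PYC2*. Counts of the other 6 genes were whole in all 12 libraries, and no annotated gene overlaps a member. *PYC2* and *PDB1* both lie on chromosome II, with 2903 bases between them.

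The windows before *MAE1* and *LPD1* are shown because *MAE1* had the largest change among the 8 genes in each of the 4 comparisons below, and because *LPD1* was higher after the shift in both genotypes. Each runs from 250 bases before the start codon to 50 bases from its first base on. They were cut from the R64 genome of RefSeq at chrXI:384676-384975 for *MAE1* and chrVI:103078-103377 for *LPD1*, both on the minus strand. Capitals mark the start codon and any match, on either strand, to the motifs searched.
MAE1: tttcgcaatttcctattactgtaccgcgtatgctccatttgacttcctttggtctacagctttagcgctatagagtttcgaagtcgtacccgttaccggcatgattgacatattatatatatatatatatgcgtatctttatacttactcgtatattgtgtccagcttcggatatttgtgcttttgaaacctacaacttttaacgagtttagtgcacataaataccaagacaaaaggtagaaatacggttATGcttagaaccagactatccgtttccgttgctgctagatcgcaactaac
LPD1: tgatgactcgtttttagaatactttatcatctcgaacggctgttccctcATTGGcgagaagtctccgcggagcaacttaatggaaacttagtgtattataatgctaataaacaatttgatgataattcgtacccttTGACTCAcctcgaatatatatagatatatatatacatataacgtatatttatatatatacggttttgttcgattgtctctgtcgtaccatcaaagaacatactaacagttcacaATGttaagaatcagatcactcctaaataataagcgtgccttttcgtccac
The motifs were CCAAT, the core bound by the Hap complex, AGGGG, the stress response element, TGANTCA, the core bound by Gcn4, the Leu3 core, which is CCGG followed after 2 bases by CCGG, and a form of the carbon source element, which is CGG followed after 8 bases by CCG. These do not overlap one another in the members. *LPD1* held CCAAT on the minus strand at -201 to -197 and TGANTCA at -114 to -108, counted from the first base of the start codon as 1. *MAE1*, *LAT1* and *PDX1* held none of the 5 motifs. CCAAT occurred in 4 of 8 members (*PYC2*, *PDA1*, *PDB1* and *LPD1*) and in 43.3% of 6001 windows of the same length, AGGGG in 3 of 8 (*PYC1*, *PYC2* and *PDA1*) and in 21.6%, and TGANTCA in *LPD1* and in 7.33%. The Leu3 core and the carbon source element occurred in no member and in 0.133% and 0.933% of windows. CCAAT lay wholly before the start codon only in *PYC2* and *LPD1*. In *PDB1* the CCAAT match lay inside the coding sequence, at 24 to 28. In *PDA1* the matches lay at -3 to 2, into the start codon, and at 36 to 40. *PYC2* held a further match at 18 to 22.

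Levels are compared between genes in TPM, which divides counts by coding length and scales them to a sum of 1000000 per library. After the shift in *mrn1Δ*, the order by mean TPM was *PDA1* (526 ± 26.2, SD, n = 3 here and in the next sentence), *PDB1* (434 ± 22.2), *PYC1* (313 ± 11.4), *LPD1* (289.9 ± 10.4), *LAT1* (288 ± 5.74), *PYC2* (191 ± 9.53), *PDX1* (119.7 ± 3.30) and *MAE1* (24.2 ± 0.44). In fermentative wild-type the order was *PDA1* (498 ± 34.8), *PDB1* (448 ± 11.1), *LAT1* (247 ± 14.1), *PYC1* (200.4 ± 21.1), *LPD1* (174 ± 17.4), *PYC2* (147 ± 24.1), *MAE1* (110.0 ± 13.4) and *PDX1* (87.9 ± 2.84). In that group the libraries of *PDA1* and *PDB1*, of *PYC1* and *LPD1*, of *LPD1* and *PYC2*, and of *PYC2* and *MAE1* overlapped, and those of *PDB1* and *LAT1*, of *LAT1* and *PYC1*, and of *MAE1* and *PDX1* did not. By mean TPM, *MAE1* stood next to last before the shift and last after it in both genotypes. In fermentative *mrn1Δ* it had 88.7 and *PDX1* 85.2 TPM, with libraries that overlapped. In wild-type after the shift it had 61.5 and *PDX1* 102 TPM. Measured in TPM, the median gene moved up by 0.40 and 0.34 on the log2 scale at the shift in *mrn1Δ* and wild-type, so TPM is used here only for the order of genes and for the share of one gene in a sum of several within a library.

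Differences between groups are given in CPM after TMM normalization, with log2 fold changes ± their standard errors and adjusted p-values from edgeR's quasi-likelihood test over all genes tested in that comparison. A gene is called higher or lower where the Benjamini-Hochberg adjusted p is under 0.05.

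**Figure D1:**
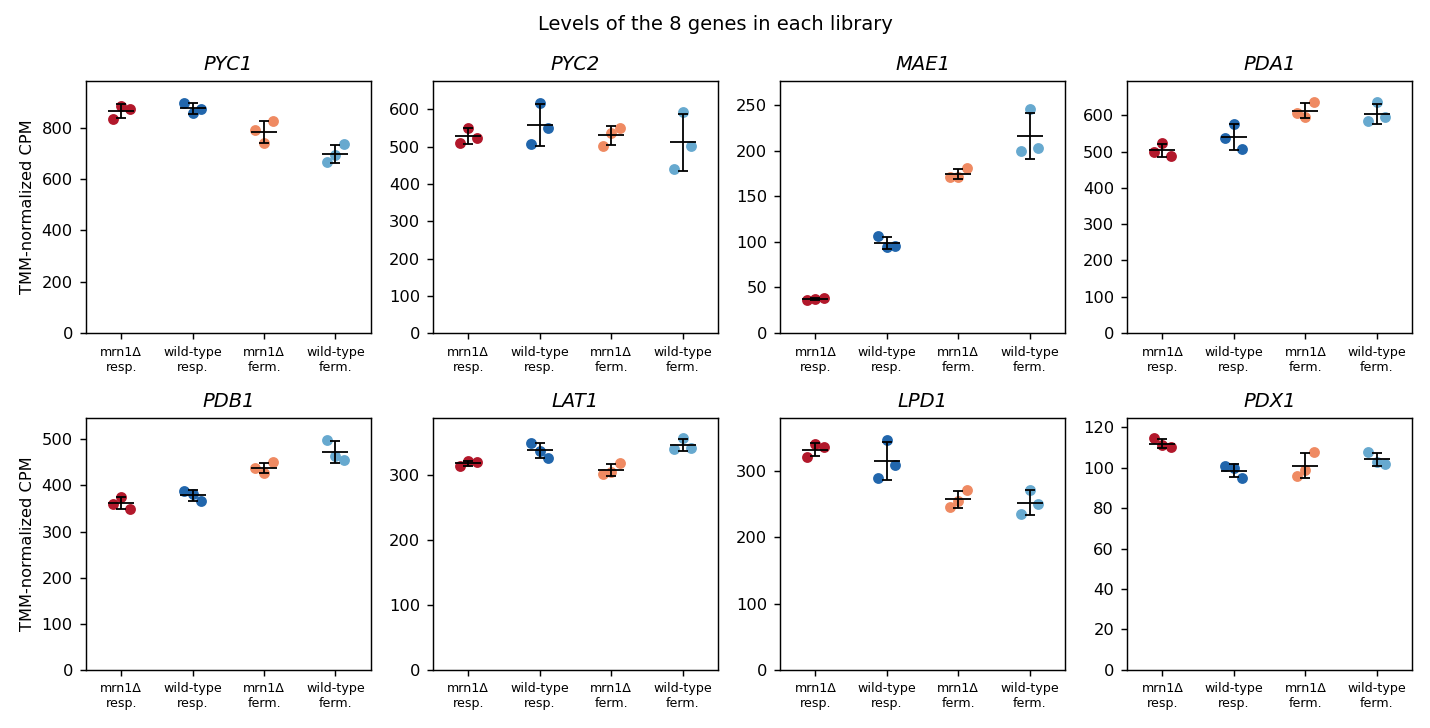
TMM-normalized CPM (y axis, starting at 0) of the 8 genes in each of the 12 libraries (points), by group (x axis), with bars at the mean ± SD of 3 replicates. *MAE1* sits at 36.7 to 38.3 CPM in *mrn1Δ* after the shift, apart from all other groups, while the other 7 genes stay within narrow ranges.

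*MAE1* (YKL029C) was the member that changed most. Its levels were 36.7, 37.6 and 38.3 CPM in the 3 *mrn1Δ* libraries after the shift, against 106, 93.9 and 95.4 CPM in wild-type after the shift. Before the shift they were 171, 171 and 181 CPM in *mrn1Δ*, against 199.7, 246 and 203 CPM in wild-type. The 4 groups did not overlap at any point and ran in 1 order, with shifted *mrn1Δ* lowest, then shifted wild-type, fermentative *mrn1Δ* and fermentative wild-type. Group means were 37.6 ± 0.765, 98.6 ± 6.89, 174 ± 5.66 and 216 ± 25.6 CPM in that order (SD, n = 3 each). In each genotype the malic enzyme transcript fell at the shift. The fall was 4.68-fold in *mrn1Δ* (log2 fold change -2.23 ± 0.05, edgeR adjusted p = 8.3e-11) and 2.20-fold in wild-type (-1.14 ± 0.10, edgeR adjusted p = 5.8e-06), so that *mrn1Δ* kept 21.4% and wild-type 45.4% of the fermentative level after 20 minutes.

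Between genotypes, *MAE1* after the shift was 2.61-fold lower in *mrn1Δ* than in wild-type (-1.38 ± 0.06, edgeR adjusted p = 3.9e-07). In fermentative growth the fold change was -0.32 ± 0.09 (*mrn1Δ* over wild-type), and the groups did not overlap, but the gene was not called (edgeR adjusted p = 0.17, unadjusted p = 0.0049). DESeq2 gave -0.31 with an adjusted p of 0.044 for that comparison and all 12 libraries in one edgeR fit gave an adjusted p of 0.044, so the fermentative call depended on the method. The interaction of genotype and condition, the shift in *mrn1Δ* minus the shift in wild-type, was -1.06 ± 0.11 on the log2 scale (edgeR adjusted p = 5.3e-04). It lay between -1.17 and -0.97 in 18 alternative fits, with an adjusted p under 0.05 in all 18 and a highest of 0.0038. In rank among all coding sequences by TPM, *MAE1* stood on average at percentile 26.6 in *mrn1Δ* and 61.6 in wild-type after the shift, and at 77.0 in *mrn1Δ* and 81.1 in wild-type before it.

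Pyruvate carboxylase changed little. *PYC1* (YGL062W), the more abundant isozyme transcript, had 835, 886 and 872 CPM in *mrn1Δ* after the shift, against 789.6, 739 and 824 CPM in fermentative *mrn1Δ*. In wild-type it had 897, 856 and 872 CPM after the shift, against 665, 696 and 735 CPM before it. Shifted and fermentative libraries did not overlap in either genotype. *PYC1* rose at the shift in wild-type (0.32 ± 0.09, edgeR adjusted p = 0.008), by 1.25-fold. In *mrn1Δ* the value was 0.13 ± 0.06 with an edgeR adjusted p of 0.066, which does not pass. It passed in 3 of 14 alternative fits, among them replicate number as a block (adjusted p = 0.035) and library totals in place of TMM factors. DESeq2 did not call it (adjusted p = 0.17). Replicate numbers were not accepted as pairs in this shift, and with library totals the median gene moved up by 0.22. The *PYC1* response in *mrn1Δ* minus that in wild-type was -0.17 ± 0.10 and was not called (edgeR adjusted p = 0.37).

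Between genotypes, *PYC1* in fermentative growth had a fold change of 0.16 ± 0.08 (edgeR adjusted p = 0.35), with every *mrn1Δ* library above every wild-type library. After the shift it was -0.01 ± 0.07 (edgeR adjusted p = 0.94), and the genotypes overlapped. *PYC2* (YBR218C) had 509, 551 and 525 CPM in *mrn1Δ* and 507, 617 and 549.9 CPM in wild-type after the shift, against 503, 538 and 550.3 CPM in fermentative *mrn1Δ* and 441, 592 and 502 CPM in fermentative wild-type. All 4 groups overlapped, and wild-type replicate 2 was the highest library in both stages. No comparison called *PYC2*. Its log2 fold changes between pairs of groups lay between -0.07 and 0.12, and its interaction was -0.11. With the reads of both isozymes summed, the shift was 0.24 in wild-type (edgeR adjusted p = 0.042) and 0.07 in *mrn1Δ*.

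As a share of the summed TPM of both isozymes, *PYC1* made up 62.1% ± 0.40 in *mrn1Δ* and 61.2% ± 2.89 in wild-type after the shift, against 59.7% ± 1.62 in fermentative *mrn1Δ* and 57.9% ± 3.33 in fermentative wild-type (SD, n = 3 each). The share was 2.85 percentage points higher in the 6 shifted than in the 6 fermentative libraries, with a two-sided exact permutation p of 0.043 and an adjusted p of 0.22 over the 5 comparisons made. Within *mrn1Δ* alone, all shifted libraries (61.7 to 62.5%) were above all fermentative ones (57.9 to 61.1%), with an exact permutation p of 0.1, the smallest that 3 against 3 allows. Within wild-type the stages overlapped, at 58.2 to 63.9% after the shift and 54.1 to 60.2% before it (exact permutation p = 0.4). Taken as pairs by replicate number, all 3 wild-type pairs were higher after the shift, by 1.94 to 4.10 points, with an exact sign-flip p of 0.25, the smallest that 3 pairs allow. Between genotypes the exact permutation p was 0.7 after the shift and 0.6 before it. Leaving out 1 library changed this result, since 9 of 12 such tests of the pooled difference did not reach 0.05, and without fermentative wild-type replicate 2 the difference was 1.90 points.

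**Figure D2:**
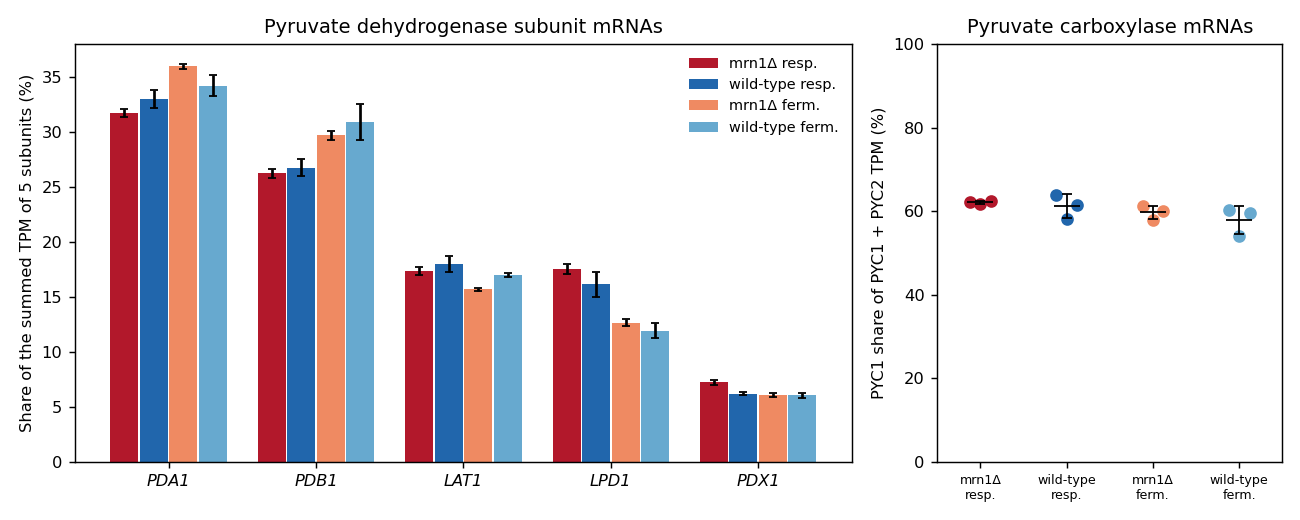
Left, the share of each pyruvate dehydrogenase subunit transcript in the summed TPM of the 5 subunits (y axis, percent), by gene (x axis) and group (bars, mean ± SD of 3 replicates). Right, the share of *PYC1* in the summed TPM of *PYC1* and *PYC2* in each library (points, with mean ± SD), where all 12 libraries lie between 54.1 and 63.9%.

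The subunits of the pyruvate dehydrogenase complex did not move together at the shift. In TMM-normalized CPM, the transcripts of the decarboxylating component were lower after the shift. *PDB1* (YBR221C), its beta chain, had 361, 375 and 348 CPM in *mrn1Δ* after the shift, against 437, 427 and 450.2 CPM in fermentative *mrn1Δ*, and 389, 382 and 365 CPM in wild-type after the shift, against 499, 465 and 454 CPM in fermentative wild-type. The stages did not overlap in either genotype. *PDB1* fell by 1.22-fold in *mrn1Δ* (-0.29 ± 0.05, edgeR adjusted p = 5.3e-04) and by 1.25-fold in wild-type (-0.33 ± 0.08, edgeR adjusted p = 0.005). *PDA1* (YER178W), the alpha chain and the site of phosphorylation by the Pkp kinases, had 499.9, 524 and 489 CPM in *mrn1Δ* after the shift, against 606, 596 and 636 CPM before it, and 537, 578 and 506 CPM in wild-type after the shift, against 584, 636 and 594 CPM before it. The stages did not overlap in either genotype. *PDA1* fell in *mrn1Δ* (-0.29 ± 0.05, edgeR adjusted p = 5.6e-04). In wild-type its value of -0.17 ± 0.09 did not pass in edgeR (adjusted p = 0.10) but did in DESeq2 (-0.20, adjusted p = 0.031) and in the fit of all 12 libraries. With library totals in place of TMM factors, the falls in *mrn1Δ* were smaller. They were -0.12 for *PDA1* (edgeR adjusted p = 0.049) and -0.12 for *PDB1* (edgeR adjusted p = 0.051).

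*LPD1* (YFL018C), the dehydrogenase shared with the other lipoate complexes, went the other way. It had 321, 341 and 336 CPM in *mrn1Δ* after the shift, against 247, 255 and 272 CPM before it, and 289, 347 and 309.8 CPM in wild-type after the shift, against 235, 272 and 250.0 CPM before it. Every shifted library was above every fermentative library of its genotype. *LPD1* rose by 1.28-fold in *mrn1Δ* (0.36 ± 0.05, edgeR adjusted p = 1.5e-04) and by 1.24-fold in wild-type (0.31 ± 0.09, edgeR adjusted p = 0.012). The wild-type call was lost without fermentative wild-type replicate 3, at 0.28 and an adjusted p of 0.065.

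*LAT1* (YNL071W), the acetyltransferase core, was not called in any comparison. It had 314, 322 and 320.5 CPM in *mrn1Δ* and 350.3, 338 and 327 CPM in wild-type after the shift, against 301, 305 and 318 CPM in fermentative *mrn1Δ* and 341, 357 and 342 CPM in fermentative wild-type. Within each stage every *mrn1Δ* library was below every wild-type library, and within each genotype the stages overlapped. The genotype fold changes were -0.08 ± 0.06 after the shift (edgeR adjusted p = 0.41) and -0.18 ± 0.06 before it (edgeR adjusted p = 0.26).

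*PDX1* (YGR193C), which anchors Lpd1, was the least abundant subunit transcript. It had 115, 111 and 110.4 CPM in *mrn1Δ* and 101, 100.1 and 94.9 CPM in wild-type after the shift, against 96.0, 99.0 and 108 CPM in fermentative *mrn1Δ* and 108, 103 and 102 CPM in fermentative wild-type. After the shift every *mrn1Δ* library was above every wild-type library, and before it the genotypes overlapped. The stages did not overlap in either genotype, with shifted libraries higher in *mrn1Δ* and lower in wild-type. *PDX1* was 1.14-fold higher in *mrn1Δ* after the shift (0.19 ± 0.05, edgeR adjusted p = 0.032), and it rose at the shift in *mrn1Δ* (0.14 ± 0.05, edgeR adjusted p = 0.029) with a value of -0.09 ± 0.07 in wild-type (edgeR adjusted p = 0.29). The difference between the responses was 0.25 ± 0.09 and was not called (edgeR adjusted p = 0.14). Both calls were weak. The genotype call after the shift was lost in 4 of 6 fits that left out 1 library, namely shifted wild-type replicate 3 (0.16) and each of shifted *mrn1Δ* replicates 1, 2 and 3 (0.18, 0.20 and 0.20), and with upper-quartile normalization (0.16) and all 12 libraries in one fit (0.19). The shift call in *mrn1Δ* held in 1 of 6 such fits, the one without fermentative *mrn1Δ* replicate 3, and had an adjusted p of 0.18 in DESeq2.

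Within each library, the 5 subunit transcripts kept the order *PDA1*, *PDB1* and then *LAT1* or *LPD1*, with *PDX1* last. *LPD1* made up 17.5% ± 0.469 of their summed TPM in *mrn1Δ* and 16.1% ± 1.17 in wild-type after the shift, against 12.7% ± 0.305 in fermentative *mrn1Δ* and 11.9% ± 0.722 in fermentative wild-type (SD, n = 3 each). *PDB1* made up 26.2% ± 0.422 and 26.7% ± 0.794 after the shift in *mrn1Δ* and wild-type, against 29.7% ± 0.373 and 30.8% ± 1.63 before it. *PDX1* made up 7.23% ± 0.247 in shifted *mrn1Δ*, against 6.19% ± 0.157 in shifted wild-type, 6.07% ± 0.192 in fermentative *mrn1Δ* and 6.05% ± 0.239 in fermentative wild-type. *LPD1* and *LAT1* changed places at the shift in *mrn1Δ* by group mean, *LAT1* making up 17.4% ± 0.361 after it and 15.7% ± 0.154 before it, and their libraries overlapped after the shift (*LPD1* 17.1 to 18.0%, *LAT1* 17.1 to 17.8%).

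**Figure D3:**
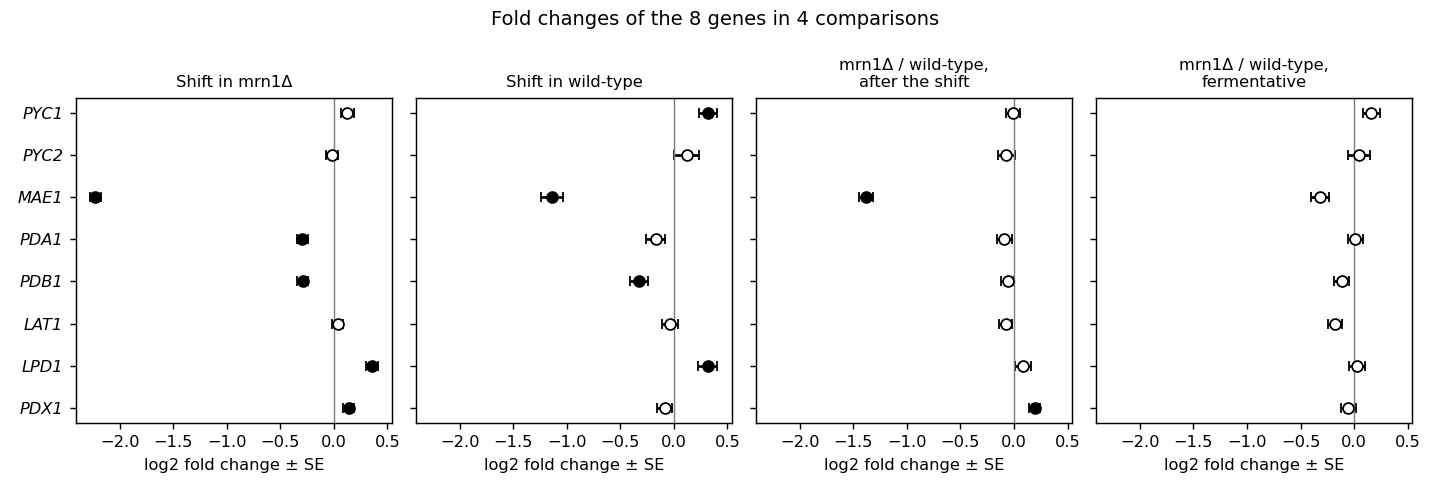
Log2 fold changes (x axis) ± standard error of the 8 genes (y axis) in 4 comparisons, from edgeR fits on the 6 libraries of each. Filled points have an adjusted p under 0.05, and *MAE1* lies apart at -2.23 and -1.14 for the shift in *mrn1Δ* and wild-type and at -1.38 between genotypes after the shift.

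Counted over the members, the shift in *mrn1Δ* called 2 of 8 genes higher (*LPD1* and *PDX1*) and 3 lower (*MAE1*, *PDA1* and *PDB1*), where 43.2% of 5793 tested genes were called higher and 40.3% lower. The shift in wild-type called 2 higher (*PYC1* and *LPD1*) and 2 lower (*MAE1* and *PDB1*), where 38.6% of 5801 genes were higher and 36.4% lower. So most genes were called in these comparisons, and the members' share was not above that. Their median log2 fold change was 0.01 in *mrn1Δ* and -0.06 in wild-type, against 0.05 and 0.03 over all genes. Divided by library totals without TMM factors, an alternative chosen after seeing the data, the median gene moved up by 0.22 at the shift in *mrn1Δ*. Of 5793 genes 2910 were then called higher and 1976 lower. The 5 members called higher were *PYC1* (0.30), *PYC2* (0.15), *LAT1* (0.21), *LPD1* (0.52) and *PDX1* (0.31). Of these, *PYC2* and *LAT1* lay below that median and *PYC2* changed sign. *PDB1* was no longer called (-0.12, edgeR adjusted p = 0.051) and *MAE1* stayed at -2.06. These shift comparisons share libraries with the genotype comparisons below. Non-overlap of stages was not counted over all genes, so for the members it is description only.

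After the shift, *mrn1Δ* against wild-type called 1 member higher (*PDX1*) and 1 lower (*MAE1*), where 6.79% of 5800 genes were higher and 7.83% lower. That split depended on scaling, with 394 genes higher and 454 lower under TMM, 540 and 315 under library totals, and 260 and 577 under upper-quartile normalization. Of the members, 3 had genotypes that did not overlap (*MAE1*, *LAT1* and *PDX1*), as did 34.7% of all genes tested. In fermentative growth edgeR called 0 members, where 0.588% of 5785 genes were higher and 0.328% lower. At an unadjusted p under 0.05 it counted 2 members lower, *MAE1* and *LAT1*, and 0 higher, beside 878 of the 5785 genes in either direction. DESeq2 called 1 member lower there, *MAE1*, and 0 higher, beside 54 lower and 153 higher of the 5785 genes. The genotypes of 4 members did not overlap in fermentative growth (*PYC1*, *MAE1*, *PDB1* and *LAT1*), beside 21.9% of all genes. The interaction called 1 member lower, *MAE1*, where 1.12% of 5828 genes were higher and 2.11% lower, or 65 and 123 genes, a split that was 100 higher and 60 lower under library totals.

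Around these enzymes, 46 neighbouring genes in 9 lists were drawn up with earlier results known. At the shift 27 of them rose and 15 fell in *mrn1Δ*, where 43.2% of all genes tested rose and 40.3% fell, and 25 rose and 11 fell in wild-type, where 38.6% rose and 36.4% fell. Most genes of any kind were thus called, and the counts per list that follow are read beside those shares. The median log2 fold change of the neighbours was 0.62 in *mrn1Δ* and 0.54 in wild-type, beside 0.05 and 0.03 over all genes, and the lists were not tested against other genes. All 3 subunits of the mitochondrial pyruvate carrier rose, with *MPC3*, the subunit known for respiratory growth, at 5.87 in *mrn1Δ* and 5.78 in wild-type, *MPC1* at 1.49 and 1.25, and *MPC2*, the subunit known for fermentative growth, at 0.69 and 0.76. All 4 kinases and phosphatases of the complex rose too. The kinase gene *PKP1* stood at 1.31 in *mrn1Δ* and 1.38 in wild-type, *PKP2* at 1.44 and 0.96, and the phosphatase gene *PTC6* at 1.45 and 1.27. Of the 8 members none rose by as much as any of these 3, and transcripts of the carrier and of the enzymes that modify Pda1 thus rose where *PDA1* itself did not.

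*PYK2*, the minor pyruvate kinase, rose by 3.55 in *mrn1Δ* and 3.30 in wild-type on the log2 scale, and *CDC19*, the main one, stood at -0.18 and 0.09, called only in *mrn1Δ*. Among the 8 genes of the route from pyruvate through acetaldehyde and acetate to acetyl-CoA, 4 rose and 4 fell in *mrn1Δ* and 4 rose and 3 fell in wild-type, led by *ACS1*, an acetyl-CoA synthetase, at 5.14 and 4.59 and *ALD4*, a mitochondrial aldehyde dehydrogenase, at 4.63 and 4.39. Of the 8 oxaloacetate and malate enzymes 7 rose in each genotype, among them *CIT3*, a mitochondrial citrate and methylcitrate synthase, at 2.91 and 2.48, *MDH2*, the cytosolic malate dehydrogenase, at 2.26 and 2.25, and *CIT1*, the main mitochondrial citrate synthase, at 2.37 and 2.11, so that *MAE1* fell while these rose. *FUM1*, the fumarase, was the exception, at -0.01 and -0.08.

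The cofactor genes split. Of 6 genes for biotin, the cofactor of pyruvate carboxylase, 1 rose and 4 fell in each genotype, and *VHT1*, the biotin transporter, had the largest fall, at -2.51 in *mrn1Δ* and -2.24 in wild-type. Of the complexes that share Lpd1, the 3 genes of alpha-ketoglutarate dehydrogenase (*KGD1*, *KGD2* and *KGD4*) rose, with *KGD4* at 1.31 and 0.93, and the genes for glycine cleavage fell, with *GCV2*, the decarboxylase, at -1.59 and -1.33 and *GCV3*, the lipoate carrier, at -1.67 and -1.73. *LPD1*, which serves both, rose by less than any of the 3 KGD genes.

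**Figure D4:**
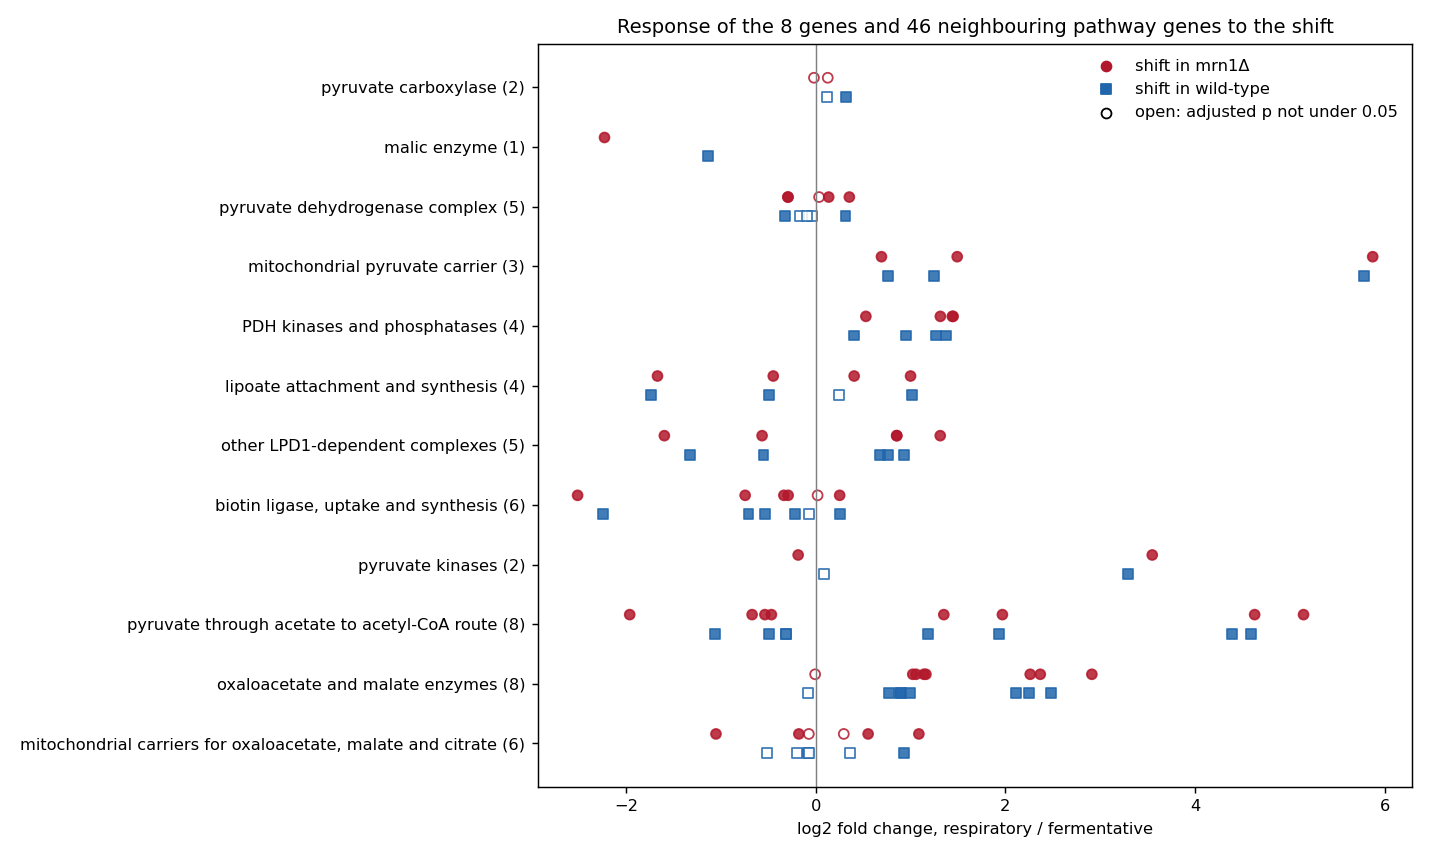
Log2 fold change at the shift (x axis) of each of the 8 genes and 46 neighbouring genes (points), by list (y axis, number of genes in brackets), in *mrn1Δ* (circles) and wild-type (squares), filled where the adjusted p is under 0.05. The 5 subunits of pyruvate dehydrogenase and both pyruvate carboxylases lie between -0.33 and 0.36, while *MPC3* reaches 5.87 in *mrn1Δ* and 5.78 in wild-type.

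Between genotypes, 4 of the 46 neighbouring genes were lower in *mrn1Δ* in fermentative growth and 0 were higher, where 0.328% of all genes tested were lower and 0.588% higher. DESeq2 called 5 of the 46 lower and 0 higher, beside 54 lower and 153 higher of 5785 genes. At an unadjusted p under 0.05 edgeR counted 8 of the 46 lower and 1 higher, beside 878 of 5785 genes in either direction. The 4 genes were *OAC1*, the mitochondrial carrier for oxaloacetate, at -1.97 ± 0.07 (edgeR adjusted p = 1.2e-06), *DIC1*, the dicarboxylate carrier that moves malate, at -1.89 ± 0.20 (edgeR adjusted p = 0.0044), *ALD5*, a mitochondrial aldehyde dehydrogenase, at -0.54 ± 0.08 (edgeR adjusted p = 0.012), and *BIO2*, biotin synthase, at -0.37 ± 0.07 (edgeR adjusted p = 0.047). The count was 2 without wild-type replicate 3 or without *mrn1Δ* replicate 1 or 2. After the shift the same 4 genes were lower in *mrn1Δ*, *OAC1* at -2.92, *DIC1* at -1.68, *ALD5* at -1.42 and *BIO2* at -0.56, together with *GCV2* (-0.40) and *ACS2* (-0.22). Higher in *mrn1Δ* were 5 genes, *PKP2* (0.27), *KGD2* (0.27), *KGD4* (0.32), *MDH3* (0.28) and *CIT1* (0.33). Over all genes tested, 7.83% were lower and 6.79% higher after the shift. The count of 5 higher was not stable, at 10 with DESeq2, 12 with library totals, 11 with replicate number as a block, 3 without wild-type replicate 1 or 3, 13 without wild-type replicate 2, and 0, 2 and 1 without *mrn1Δ* replicates 1, 2 and 3. Over all genes tested the count higher moved too, from 394 to 460 with DESeq2, 540 with library totals and 470 with the block. It was 152 to 445 with a library left out. Both lists share libraries with the *MAE1* comparison.

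After the shift *MAE1* stood at -1.38 between genotypes, and the listed genes *OAC1*, *DIC1* and *ALD5* at -2.92, -1.68 and -1.42. The lists were drawn up with earlier results known, and how many of all genes changed as much was not counted. The interaction called *MAE1* (-1.06), *OAC1* (-0.95 ± 0.10, edgeR adjusted p = 5.3e-04) and *ALD5* (-0.88 ± 0.17, edgeR adjusted p = 0.013) lower and *PKP2* (0.50 ± 0.12, edgeR adjusted p = 0.038) higher, where 2.11% of all genes tested were lower and 1.12% higher. The *PKP2* call was lost in 8 of 12 fits that left out 1 library, namely any of the 3 shifted *mrn1Δ* libraries, fermentative *mrn1Δ* replicates 1 and 2, shifted wild-type replicates 1 and 3 and fermentative wild-type replicate 3, each of which left 0 neighbouring genes higher. DESeq2 called 4 of the 46 higher, library totals 3 and the replicate block 2. At the shift *OAC1* stood at -1.05 ± 0.08 in *mrn1Δ* and at -0.08 ± 0.07 in wild-type (edgeR adjusted p = 0.33).

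Across the 12 libraries, the genes whose log2 CPM was most like *MAE1* by Pearson's r, out of 5828 genes, were *ILV2* (r = 0.99), an acetolactate synthase subunit that takes pyruvate into branched-chain amino acids, and *FSF1* (0.99), a mitochondrial protein of the sideroflexin family. The points share 4 groups, so these values follow the group means, and r over deviations from the group means was 0.72 and 0.58. *LPD1* was most like *MDH1* (0.98, within groups 0.93), the mitochondrial malate dehydrogenase. *LAT1* was most like *MRN1* itself (0.86, within groups 0.04). For the other members the highest r was 0.99 for *PDB1* (*BUD23*), 0.97 for *PDA1* (*TEF2*), 0.95 for *PYC1* (*POG1*), 0.93 for *PYC2* (*HEL2*) and 0.83 for *PDX1* (*SCP1*). Within groups, the closest pair of members was *LPD1* and *PYC2* (r = 0.94 over 12 deviations), while *PYC1* and *PYC2* had r = 0.13. The 12 deviations come from 4 group means and are not independent, and the *LPD1* and *PYC2* pair was picked as the highest. For both of these genes, wild-type replicate 2 was the highest and replicate 1 the lowest library of its group in each stage.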

How the data were processed

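RNA was extracted with phenol-chloroform, rRNA was depleted and libraries were made with a commercial kit. The submitters' processing notes name kallisto 0.44.0 and build R64. The authors deposited for each coding sequence an estimated count, not normalized between libraries, and a TPM value, which sums to a fixed total per library. Strand use is not given in the sources used here. Of 5917 identifiers, 5911 matched R64 by systematic name, and 621 had a count that was not whole (tolerance 0.001) in a library. Deposited lengths served only to check the TPM.

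Counts were rounded and tested with edgeR 4.0.16 in R 4.3.3 (TMM, default expression filter, robust quasi-likelihood test) on the 6 libraries of each comparison, and on all 12 for the interaction. All 8 members passed the filter in every comparison. Benjamini-Hochberg adjustment ran over all genes tested, and standard errors came from the F statistic. The members and lists were chosen with earlier results of these data known. The text names the members, *MRN1*, the markers, listed pathway genes (up to 3 largest per list and comparison and those that counts single out) and the genes most like a member. Likeness used log2 CPM with a prior count of 2. *PYC1* shares were tested by exact permutation. Promoter windows were cut from the R64 genome for 6001 genes. Fits were tested on simulated data.

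Alternatives were DESeq2 1.42.0, upper-quartile normalization, no filter, a minimum of 10 counts per library, one fit of all 12 libraries, replicate number as a block, each library left out, *PYC1* and *PYC2* summed and, added after seeing the data, library totals and paired *PYC1* shares. The labels number replicates 1 to 3 in each group without saying what a number shares. Deviations of same-numbered libraries from their group means correlated at 0.11 to 0.21 for the wild-type shift, over 0.1 in every pair. On that basis the numbers were assumed to pair those libraries. The lowest such correlation was 0.02, -0.08 and -0.16 in the *mrn1Δ* shift and the genotype comparisons before and after the shift. Libraries with unlike numbers reached 0.01 in the wild-type shift, 0.12 in the *mrn1Δ* shift and 0.22 between genotypes after the shift. A correlation over 0.1 thus does not by itself show pairing. No pair of replicates agreed within sampling noise (smallest chi-square per degree of freedom 11.1). The largest values were 117 and 73.4, for fermentative wild-type replicate 1 against replicates 2 and 3. Replicates 2 and 3 of that group stood at 18.4 against each other. Shifted wild-type replicates 1 and 2 stood at 64.3. Python 3.11.15, numpy 2.4.6, scipy 1.17.1, pandas 2.3.3 and matplotlib 3.10.9 were used.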

Additional observations from a re-analysis of the deposited data

Results flagged for a closer look

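*MAE1* met the criterion of a response that differs between genotypes. Its shift in *mrn1Δ* minus its shift in wild-type was -1.06 ± 0.11 on the log2 scale (edgeR adjusted p = 5.3e-04, interaction term over 12 libraries). The fall was seen in all 3 shifted libraries of each genotype against all 3 fermentative ones. Of the 4 glucose-repressed markers the interaction called 1 higher, *JEN1* at 1.31 ± 0.17 (edgeR adjusted p = 0.0017), and 0 lower, and the part of these markers in the *MAE1* value was not tested.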

How the results depend on the processing

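Genes called over the whole table in fermentative growth were 53, against 207 with DESeq2 and 192 with all 12 libraries in one fit, and 19 to 87 with each library left out. After the shift 848 genes were called between genotypes and 332 to 918 with a library left out. The interaction called 188 genes, 431 with DESeq2 and 81 to 501 with a library left out. Members called lower in fermentative growth were 0, and 1 with DESeq2 or all 12 libraries in one fit. Members higher after the shift between genotypes were 1, and 0 with upper-quartile normalization or all 12 libraries in one fit and 0 to 1 with a library left out. Members higher at the shift in *mrn1Δ* were 2, and 1 with DESeq2 or all 12 libraries in one fit. They were 5 with library totals, beside 2910 of 5793 genes tested, and 1 to 3 with a library left out. In wild-type they were 1 to 2 with a library left out.

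The *PYC1* share difference between genotypes in fermentative growth ran from -0.10 to 2.95 points with a library left out, negative without wild-type replicate 2, and after the shift from -0.54 to 2.35, negative without wild-type replicate 2. Same-numbered libraries were also taken as pairs, an alternative chosen after seeing the data. The exact sign-flip p for the *PYC1* share at the shift was 0.25 in each genotype, the smallest that 3 pairs allow. Over the 6 pairs of both it was 0.031, the smallest that 6 allow. In the *mrn1Δ* shift, where the lowest same-number correlation was 0.02, the numbers were not accepted as pairs. The *mrn1Δ* and 6-pair values thus rest on pairs not accepted and were not adjusted. No conclusion is drawn from them. The pooled stage difference ran from 1.90 to 3.54 points.

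Member values that changed sign were uncalled in the fits as designed. With upper-quartile normalization they were *PYC2* (-0.011), *PDA1* (-0.045) and *LPD1* (-0.031) in fermentative growth and *PYC2* at the *mrn1Δ* shift (0.0010). With library totals they were *PYC2* (-0.011), *PDA1* (-0.048) and *LPD1* (-0.034) in fermentative growth, *PYC1* between genotypes after the shift (0.031), *LAT1* at the wild-type shift (0.0049) and *PYC2* at the *mrn1Δ* shift (0.15, called). With a library left out they ran in fermentative growth from -0.047 to 0.16 for *PYC2*, -0.0082 to 0.046 for *PDA1* and -0.021 to 0.080 for *LPD1*, between genotypes after the shift from -0.028 to 0.015 for *PYC1* and -0.14 to 0.0091 for *PYC2*, and at the shift for *PYC2* from -0.061 to 0.010 in *mrn1Δ* and -0.00091 to 0.24 in wild-type. *PYC2* at the *mrn1Δ* shift was 0.070 with both isozymes summed. The cause of these changes was not tested.

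With the replicate block, the all-gene counts were 71 (fermentative), 970 (after the shift), 4527 (wild-type shift), 4943 (*mrn1Δ* shift) and 261 (interaction). Among members the block changed only the *PYC1* call at the *mrn1Δ* shift (0.13, adjusted p = 0.035). *MAE1* kept its direction and its calls at the shift in both genotypes, after the shift between genotypes and in the interaction under every alternative tried. All members had at least 36.7 CPM in every library, above the limit that a count of 0 allows.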
